A study of Arabidopsis thaliana with 40 samples.

Results

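The mitochondrial genome of Arabidopsis thaliana, the thale cress, was represented in the gene counts by 122 of 27416 rows, chosen because their identifier starts with ATMG. Shoots were sampled as 40 libraries in 5 groups of 8. Starting plants were 14 days old with no pretreatment. A pretreatment of 6 days followed, in which pot bases stood in water (water plants) or in ethanol at 20 mM (ethanol plants). A night at -4 °C after either pretreatment gave frozen water plants and frozen ethanol plants. The labels name no genotype, mutant allele or transgene for any group, and all plants grew in soil pots at 22 °C with 16 h of light and 8 h of darkness. The frozen groups carry a label of 2 h, whose starting point is not stated, and no harvest hour is stated for any group. Lasy-Seq, a multiplexed protocol that primes at poly(A), was run on 200 ng of total RNA per library.

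Plant mitochondria keep a small genome of their own, which encodes core subunits of the respiratory chain and of the ATP synthase, proteins for cytochrome c maturation, some ribosomal proteins, ribosomal and transfer RNAs, and many open reading frames with no known role. Most respiratory subunits, and nearly all proteins that transcribe, edit, splice and degrade mitochondrial RNA, are made from nuclear genes. In plant mitochondria a poly(A) tail is a mark that leads an RNA to exonucleolytic decay, so that the tailed molecules caught by such a library are a part of the pool. Levels below therefore hold amount, tailing and decay together, and these cannot be told apart here. In bulk shoot tissue, fewer cells of a type and less RNA per cell cannot be told apart either.

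A large part of the Arabidopsis mitochondrial genome also lies in the nucleus, inserted in chromosome 2, and the start of a coding region shows how alike the 2 places can be. The first 120 bases of cox3, the gene of a cytochrome c oxidase subunit, are printed here with those of its nuclear copy and with those of cox1, the catalytic subunit of the same enzyme, for which no nuclear match was found. They come from the RefSeq assembly TAIR10.1 and are read 5′ to 3′ on the minus strand.
cox3, chrMT:330654-330773: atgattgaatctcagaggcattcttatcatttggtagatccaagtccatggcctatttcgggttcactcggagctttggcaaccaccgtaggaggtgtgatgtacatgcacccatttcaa
AT2G07687, chr2:3312532-3312651: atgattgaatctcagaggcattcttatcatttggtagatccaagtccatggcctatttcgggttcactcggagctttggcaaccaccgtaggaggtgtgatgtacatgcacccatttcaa
cox1, chrMT:116226-116345: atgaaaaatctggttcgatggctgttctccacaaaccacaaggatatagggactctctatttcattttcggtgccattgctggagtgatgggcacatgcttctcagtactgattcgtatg
The cox3 stretch and its nuclear copy differed at 0 of 120 bases of genomic sequence. Editing of mitochondrial transcripts can make their reads differ from the genome, and this was not tested. Of all 100-base windows of the 367808-base mitochondrial genome, 67.6% occurred without a mismatch in a nuclear chromosome. The share was 100% for cox3, cob, atp1 and nad3 and 0% for cox1, nad9, nad4L, atp4 and ccmB. For cox2 and rps3 it was 2.17% and 2.12%. The mitochondrial sequence of this assembly may differ from the one the authors aligned to, so these shares describe the assembly, not their alignment.

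Mitochondrial rows were sparse, and those with a nuclear twin were the sparsest. Their counts summed to 14673 of 216676654, with 135 to 802 per library from totals of 2098593 to 9211896. A total of 45 rows had no count in any library, 25 had 1 to 10 counts and 35 had more but too few to be tested. The remaining 17 passed the filter on low counts and held 13000 counts, or 88.6% of the mitochondrial sum. A count of 0 in a library still allows up to 3 counts, which is 0.326 CPM in the deepest and 1.43 CPM in the shallowest, counting error only.

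The reference notes tie 53 of the 122 mitochondrial identifiers to 55 nuclear genes, all 55 on chromosome 2 and 99.0% to 100% identical to mitochondrial sequence over the aligned length. These 53 rows held 654 counts, or 4.46% of the sum, and 0 of them could be tested, against 17 of the 69 rows with no such note. Of the nuclear copies 46 were rows of the table, with 880 counts in all and 0 tested. ATMG00220, named in those notes as apocytochrome b, the haem protein of the cytochrome bc1 complex, had 0 counts in all 40 libraries, while its 100% identical nuclear copy AT2G07727 had 111. ATMG01190, the ATP synthase subunit 1, had 9 counts and its copy AT2G07698 had 165. ATMG00730, cytochrome c oxidase subunit 3, had 7 counts and its copy AT2G07687, printed above, had 11. Among rows that the notes name as subunits, ATMG01320 (NADH dehydrogenase 2B, part of complex I, 142 counts) and ATMG01090 (noted as ATP synthase 9, 102 counts) had the most counts. The name of ATMG01090 is uncertain, since the best alignment of its nuclear copy covered 59.3% of its length and lay outside the atp9 gene. Only the best alignment of each copy was kept, so where the rest of this copy aligns was not examined. The copy of ATMG01080, a row with 11 counts, did overlap atp9. The counting of reads that match both places is not described in these sources, so the split between a row and its nuclear copy is uncertain. A lack of such a note does not show that a row has no nuclear match.

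**Figure D1:**
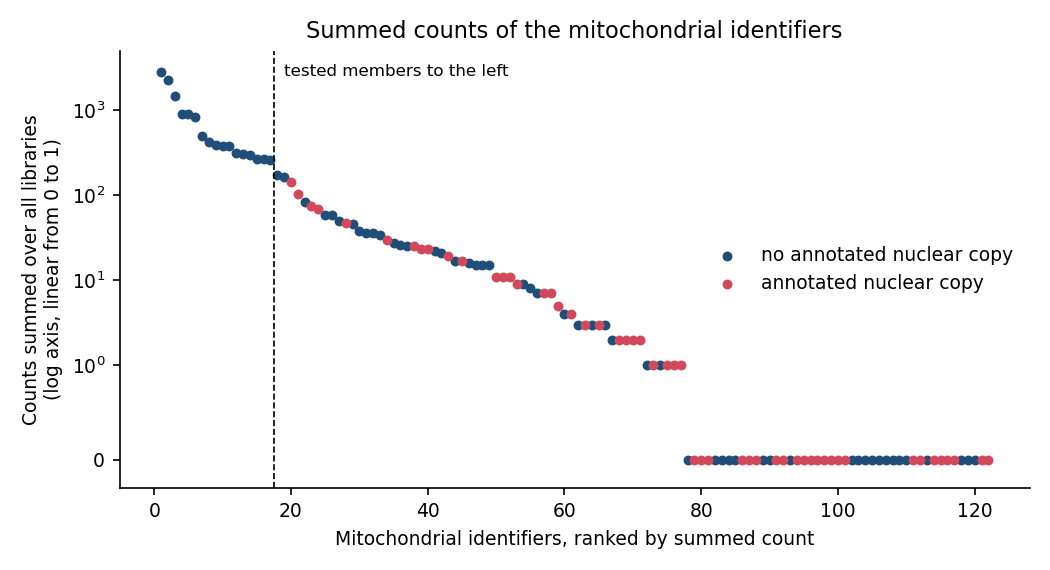
Counts of each mitochondrial row summed over 40 libraries (log axis, linear from 0 to 1) against its rank, with rows that the reference ties to a nuclear copy in red. The 17 tested rows stand left of the dashed line, and 0 of them are red.

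The tested rows are given by identifier, since the reference used here pairs no name with them and no length either. Their order is one of counts, not of RNA per length. ATMG00090 led with 2831 counts over all libraries (19.3% of the mitochondrial sum), followed by ATMG00660 with 2276 (15.5%) and ATMG01360 with 1472 (10.0%). These 3 rows held 44.8% of the mitochondrial counts. ATMG01370 (912), ATMG01170 (910), ATMG00080 (829), ATMG00160 (497) and ATMG00690 (421) came next, and the other 9 tested rows had 261 to 384 counts each.

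Mitochondrial counts were a small share of every library. Summed over the 122 rows and scaled to the library total (CPM), starting plants had 66.7 ± 13.7 (SD, n = 8 here and below; 52.8 to 94.2). The sum was 53.3 ± 6.84 CPM (43.5 to 61.7) after water and 74.0 ± 11.3 CPM (58.8 to 92.7) after ethanol. Frozen water plants had 63.5 ± 9.14 CPM (51.2 to 74.9), while frozen ethanol plants had 76.8 ± 16.4 CPM (53.7 to 105.7). Water plants were lowest and both ethanol groups highest in the mean, and neighbouring groups overlapped in range. The chloroplast-encoded rows, also reached through poly(A), took 2.51 ± 0.51%, 2.03 ± 0.34%, 2.42 ± 0.57%, 2.99 ± 0.62% and 3.40 ± 0.58% of counts in the same group order. The ratio of chloroplast to mitochondrial counts was 382 ± 63.0, 388 ± 87.6, 330 ± 71.2, 471 ± 83.9 and 449 ± 61.8. After freezing the chloroplast share stood higher against the mitochondrial share in the mean, with ranges that overlapped.

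**Figure D2:**
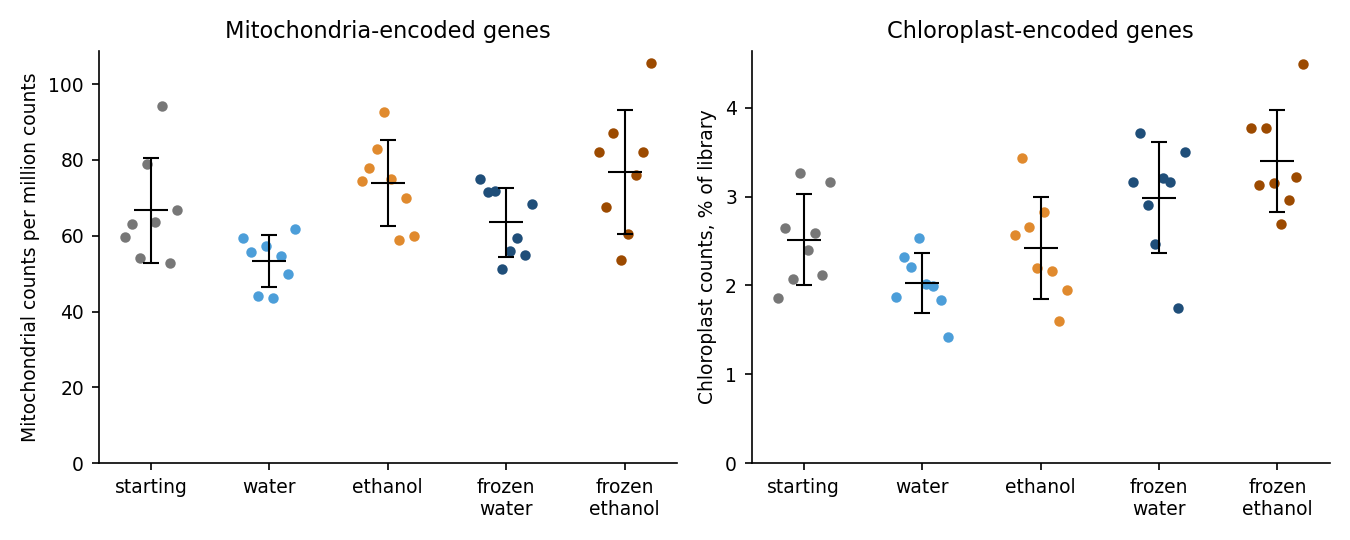
Summed mitochondrial counts in CPM (left) and chloroplast counts as a percent of the library (right) in the 5 groups, 1 point per library, with the mean ± SD. Mitochondrial means run from 53.3 in water plants to 76.8 in frozen ethanol plants, and chloroplast means from 2.03% in water plants to 3.40% in frozen ethanol plants.

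The first question was how mitochondrial RNA differed between ethanol and water plants, before any freezing. The most abundant row, ATMG00090, was higher after ethanol. In water plants it lay between 6.27 and 12.2 CPM (from here on, with the library total scaled by TMM), with a median of 8.96, and in ethanol plants between 6.68 and 24.5 CPM, with a median of 16.7. Of the 8 ethanol libraries 6 lay above every water library, and the other 2, at 6.68 and 9.02 CPM, lay within the water range. The log2 fold change was 0.74 ± 0.23 (SE here and below; 1.67-fold), at an adjusted p of 0.0249 in edgeR's quasi-likelihood test with Benjamini-Hochberg adjustment over 16579 genes. ATMG00090 took 16.6 ± 2.36% of mitochondrial counts in water plants and 20.3 ± 6.23% in ethanol plants. The call rested on single libraries: the adjusted p was 0.0593 without water replicate 5, 0.0904 without ethanol replicate 2 and 0.0546 without ethanol replicate 5, with changes of 0.67, 0.61 and 0.68.

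ATMG00090 was thus 1 of 17 mitochondrial rows called between ethanol and water plants, where 10% of all tested genes were called. At an unadjusted p under 0.05 there were 4 rows, all higher after ethanol, beside 21.9% of all genes. The other 3 did not pass the adjusted threshold: ATMG01120 at 1.12 ± 0.47 (adjusted p = 0.128), ATMG00580 at 1.09 ± 0.45 (0.126) and ATMG01360 at 0.49 ± 0.24 (0.214). ATMG00580 had a median of 0.71 CPM in water plants and 1.68 in ethanol plants, near the floor of 3 counts. Positive values were estimated for 15 of the 17 rows, with a median of 0.45, against 0.0091 over all tested genes. Of 78 chloroplast rows tested, 23 rose and 0 fell, with a median of 0.47, and whether both organelles share a cause was not tested. Summed anther and flower markers were also higher in the mean in ethanol plants (2.93 to 12.6 CPM) than in water plants (0.99 to 3.86 CPM), with overlapping ranges. Of these 4 markers 2 could be tested and 1 was called higher. AP1 (AT1G69120) had means of 0.84 CPM in water and 3.15 CPM in ethanol plants, while AMS (AT2G16910) was near 0, at 0.10 and 0.49 CPM. The part of these markers in the result was not tested.

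After freezing the same comparison was made in 16 other libraries, and ATMG00090 was again the row that passed. Frozen water plants had 4.77 to 13.1 CPM, with a median of 9.90, and frozen ethanol plants had 7.97 to 22.2 CPM, with a median of 14.9. In 5 of 8 frozen ethanol libraries the level was above every frozen water library, though 1 of them, at 13.13 CPM, lay just over the frozen water maximum of 13.12 CPM. The log2 fold change was 0.72 ± 0.22 (1.65-fold, edgeR adjusted p = 0.0426). It differed from the effect before freezing by -0.02 ± 0.32, with a 95% interval of -0.64 to 0.60 and an adjusted p of 0.995. The adjusted p was 0.0925, 0.0593, 0.0798, 0.0626 or 0.0865 without frozen water replicate 1, 2, 4, 5 or 7. It was 0.109, 0.0710, 0.113 or 0.0713 without frozen ethanol replicate 1, 2, 3 or 8, and the change stayed between 0.63 and 0.82 in every case of 1 library left out.

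Between frozen ethanol and frozen water plants 1 of 17 rows was thus called, beside 5.25% of all genes, and 2 rows had an unadjusted p under 0.05, beside 17.2%. The other was ATMG00080, at 0.94 ± 0.37 (adjusted p = 0.134). It lay between 0.80 and 3.48 CPM in frozen water plants and between 2.33 and 6.36 CPM in frozen ethanol plants, with medians of 2.84 and 5.44. The median over the 17 rows was 0.21, with 10 positive and 7 negative, against -0.011 over all genes. Of 78 chloroplast rows 3 rose and 0 fell, with a median of 0.32.

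The next question was how the mitochondrial rows differed after the night at -4 °C. No group was kept for that night without freezing, and no harvest hour is stated. Freezing, the passing of a night and the time of harvest therefore cannot be told apart, and a change with freezing names the comparison only. In water-pretreated plants ATMG01360 was 2.01-fold higher after freezing. It lay between 2.37 and 9.40 CPM in water plants, with a median of 3.62, and between 6.86 and 11.0 CPM in frozen water plants, with a median of 9.21. The ranges met through water replicate 2 alone, at 9.40 CPM, since the other 7 water libraries had at most 6.01 CPM. The log2 fold change was 1.00 ± 0.23 (edgeR adjusted p = 0.00161), and it stayed between 0.92 and 1.22 with an adjusted p of at most 0.00544 when any 1 library was left out. As a share of mitochondrial counts ATMG01360 went from 8.05 ± 3.75% to 15.0 ± 2.83%.

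ATMG01120 also rose with freezing in water-pretreated plants, from a low level. It had 0 to 8 counts in each water library, 0 in replicates 3 and 5, and at most 1.48 CPM, with a median of 1.02. Frozen water plants had 1.43 to 5.17 CPM, with a median of 1.92 and 7 to 14 counts per library. Water replicate 2, at 1.48 CPM, lay above the 2 lowest frozen water libraries, and the other 7 lay below all 8. The log2 fold change was 1.33 ± 0.46 (2.52-fold, edgeR adjusted p = 0.0425). DESeq2 gave this row no adjusted p, and a fit of only the groups compared did not test it. The call was lost with the replicate number as a block (adjusted p = 0.0574) and with no filter on low counts (0.0695). It was also lost without any of 10 libraries: the adjusted p was 0.0509, 0.0845, 0.0903, 0.0544 or 0.0709 without water replicate 1, 3, 5, 7 or 8. It was 0.0581, 0.0569, 0.0503, 0.114 or 0.0600 without frozen water replicate 3, 4, 5, 7 or 8. Frozen water replicate 7, the highest at 5.17 CPM from 13 counts, moved the change most, to 1.09 when left out.

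These were 2 of 17 rows called in water-pretreated plants, beside 14% of all genes, and 3 rows at an unadjusted p under 0.05, beside 26.7%. The 3rd went the other way and missed the adjusted threshold: ATMG00510 at -1.30 ± 0.48 (adjusted p = 0.0599), with 1.37 to 4.75 CPM before and 0.20 to 1.73 CPM after freezing. Over the 17 rows 10 estimates were positive and 7 negative, with a median of 0.05 against 0.0031 over all genes. The chloroplast rows did not share this even split: 37 of 78 rose and 0 fell, with a median of 0.54. ATMG01360 and ATMG01120 therefore rose in a group of libraries in which chloroplast counts also took a larger share, and the part of that shift in their change was not tested.

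In ethanol-pretreated plants no mitochondrial row was called after freezing. The count was 0 of 17 in edgeR, beside 9.78% of all genes, with 2 rows at an unadjusted p under 0.05, beside 22.5%, and 0 calls in DESeq2, which gave no adjusted p for 11 rows. ATMG01360 had 3.55 to 10.14 CPM in ethanol plants, with a median of 6.41, and 4.67 to 12.1 CPM in frozen ethanol plants, with a median of 9.46. Its change was 0.45 ± 0.22 (adjusted p = 0.218). ATMG01170 went from a median of 5.50 to 3.28 CPM, a change of -0.54 ± 0.24 (adjusted p = 0.163). ATMG01120 was at 0.44 to 3.28 CPM before and 0.59 to 1.87 CPM after, with a change of -0.54 ± 0.43 (adjusted p = 0.503). The median over the 17 rows was -0.19, against 0.013 over all genes, while 14 of 78 chloroplast rows rose and 0 fell, with a median of 0.38.

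**Figure D3:**
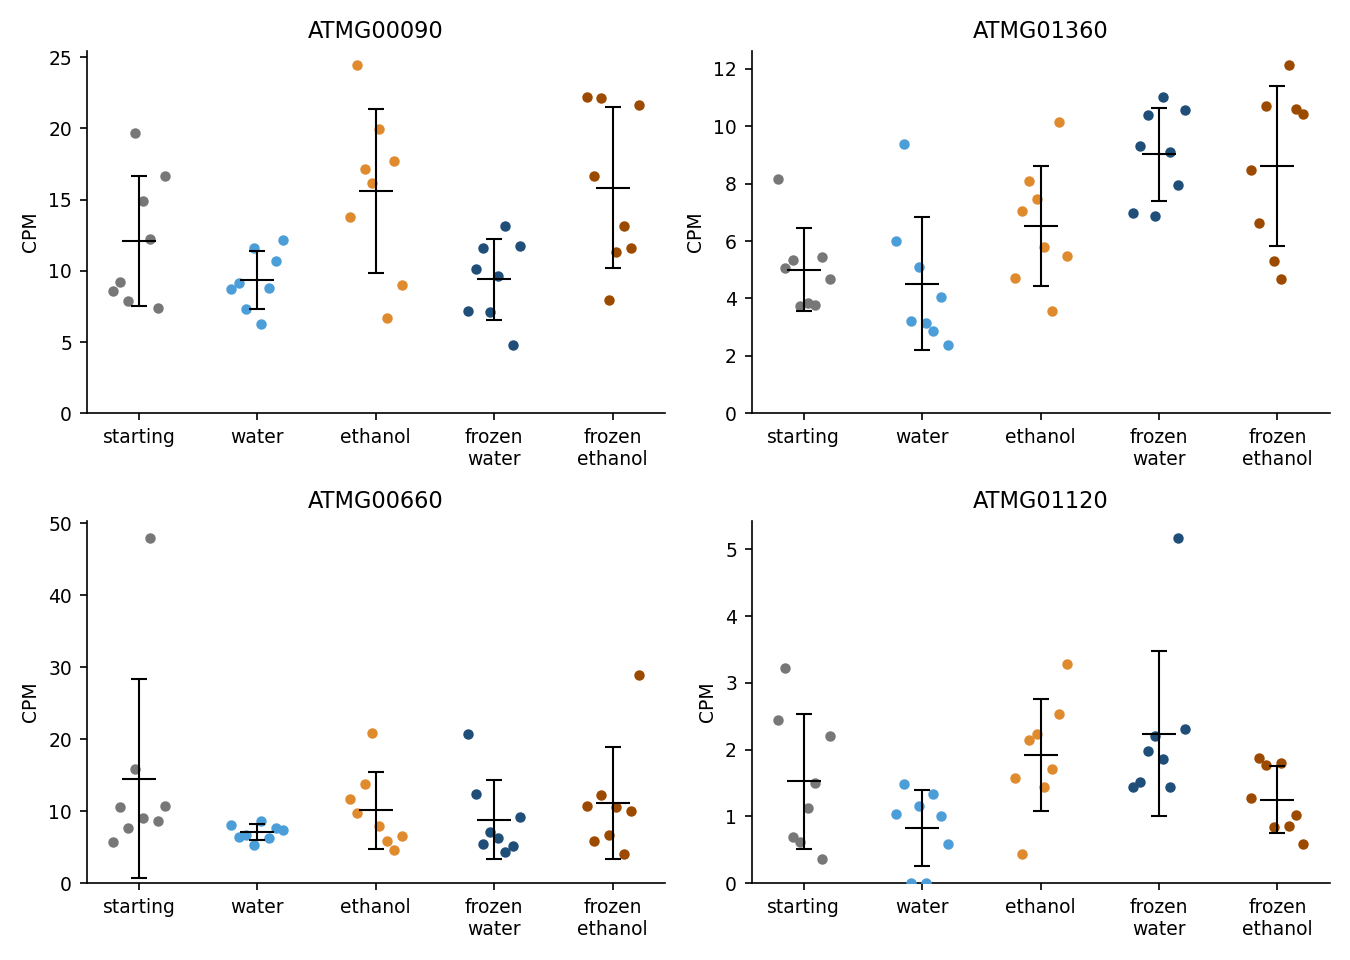
CPM of the 4 rows called in any comparison, 1 point per library with the mean ± SD of each group. ATMG00090 is higher in both ethanol groups, ATMG01360 is higher in frozen water than in water plants, ATMG00660 has a single starting library at 48.0 CPM, and ATMG01120 stays at or under 5.17 CPM.

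Whether freezing acted differently after ethanol than after water was tested directly, as the freezing effect in ethanol-pretreated plants minus that in water-pretreated plants. No mitochondrial row passed in edgeR (0 of 17, beside 0.133% of all genes), DESeq2 called 0 with no adjusted p for 11 rows, and 1 row had an unadjusted p under 0.05, beside 8.12%. That row was ATMG01120, at -1.87 ± 0.63 (unadjusted p = 0.00447, adjusted p = 0.332), which is the gap between its 1.33 after water and -0.54 after ethanol. For ATMG01360 the difference was -0.56 ± 0.32, with a 95% interval of -1.18 to 0.07 and an adjusted p of 0.697. That interval holds 0. The median over the 17 rows was -0.31 and the SE of a single row 0.32 to 0.86, so only large differences could pass.

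The last question was how the rows differed from starting plants after 6 days, a span in which growth, pretreatment and time of harvest cannot be told apart. Both comparisons use the same starting libraries. In water plants ATMG00660 was called lower, and this rested on 1 library. Starting plants had 5.72 to 48.0 CPM, with a median of 9.79, and water plants had 5.24 to 8.67 CPM, with a median of 7.02, so that the groups overlapped. The 48.0 CPM came from starting replicate 6, where ATMG00660 had 255 counts and took 48.6% of the mitochondrial counts, and the next highest starting library had 15.9 CPM. The log2 fold change was -1.07 ± 0.35 (edgeR adjusted p = 0.0175), and -0.48 with an adjusted p of 0.293 without starting replicate 6.

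ATMG00660 was 1 of 17 rows called between water and starting plants, beside 24.5% of all genes, and 3 rows had an unadjusted p under 0.05, all lower, beside 33.8%. The other 2 were ATMG00640 at -1.13 ± 0.44 (adjusted p = 0.0544) and ATMG00580 at -0.96 ± 0.45 (0.121). ATMG00640 had 1.13 to 4.37 CPM in starting plants, with a median of 3.35, and 0.18 to 2.29 CPM in water plants, with a median of 1.43. The median over the 17 rows was -0.12, against -0.0096 over all genes, while 31 of 78 chloroplast rows fell and 0 rose, with a median of -0.47. Between ethanol and starting plants edgeR and DESeq2 each called 0 of 17 rows, beside 32% of all genes in edgeR. At an unadjusted p under 0.05 there was 1 row, beside 39.7%, and it was ATMG00640 at -0.96 ± 0.44 (adjusted p = 0.0872), with 0.51 to 3.91 CPM in ethanol plants. The median over the rows was 0.16, against -0.0029 over all genes. Root markers summed to 96.9 ± 20.0 CPM in starting plants and 31.3 ± 9.82 CPM in water plants, with 3 of 7 markers at 0 in each group. Of these sums PYK10 (AT3G09260), the 1 root marker that could be tested, gave 94.3 and 30.7 CPM, and its part in these results was not tested.

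**Figure D4:**
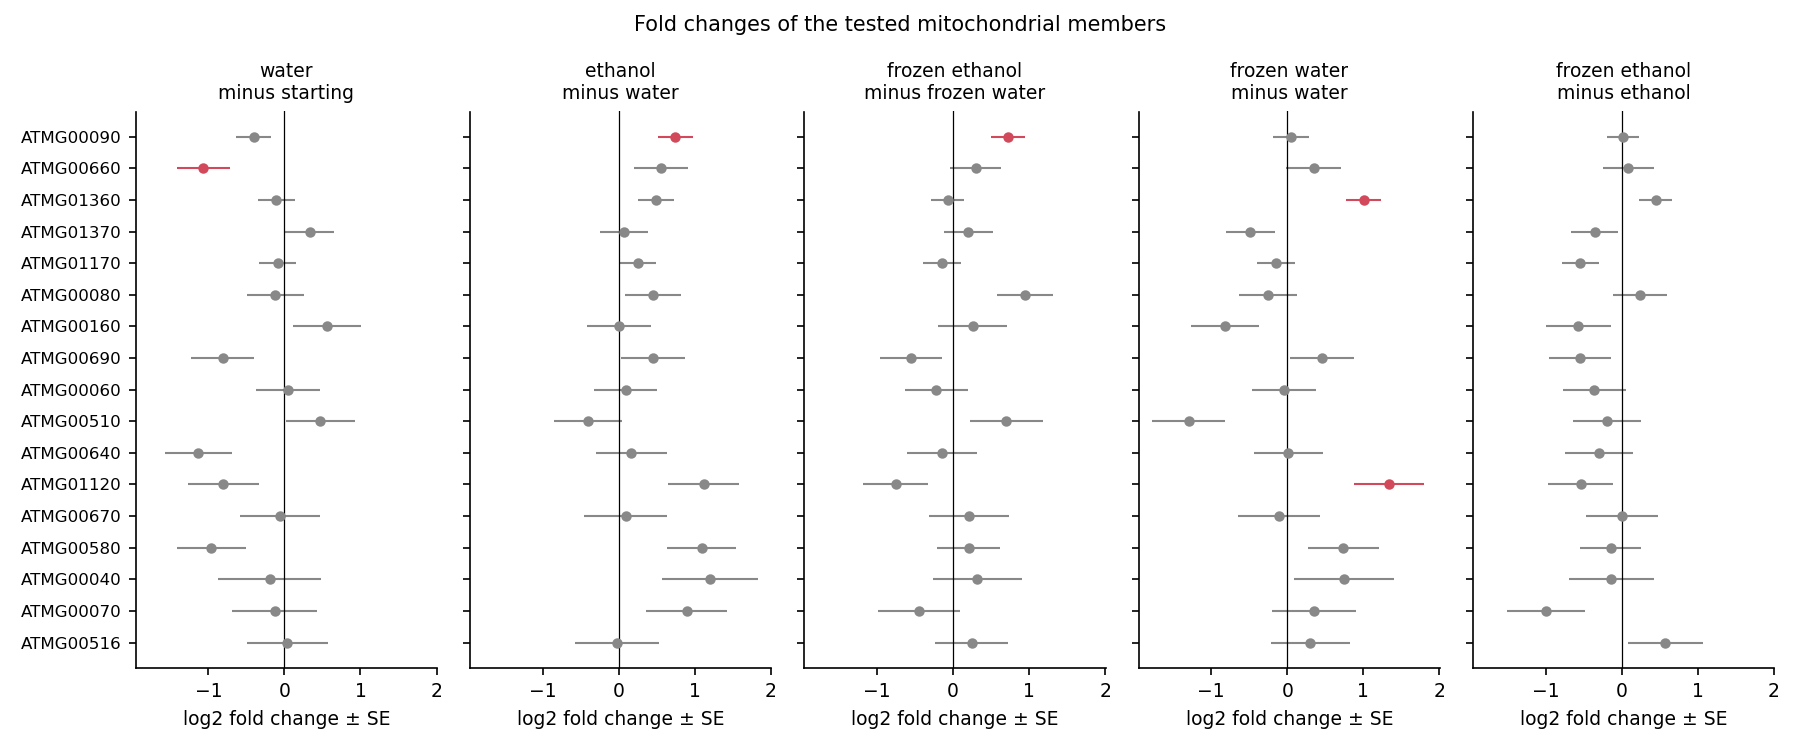
Log2 fold change ± SE of the 17 tested mitochondrial rows, from most to fewest counts, in 5 comparisons, with rows at an adjusted p under 0.05 in red. ATMG00090 is red in both ethanol comparisons (0.74 and 0.72), ATMG01360 (1.00) and ATMG01120 (1.33) in frozen water minus water, and ATMG00660 (-1.07) in water minus starting.

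Of the 17 tested rows 8 had no unadjusted p under 0.05 in any of the 7 comparisons. ATMG01370 had medians of 3.42, 5.41, 5.04, 3.76 and 3.99 CPM in starting, water, ethanol, frozen water and frozen ethanol plants, over a range of 0.49 to 7.71 CPM. ATMG00160 had medians of 2.07, 2.84, 2.61, 1.56 and 1.49 CPM, with means of 2.97 ± 1.55 in water plants before and 1.63 ± 0.60 after freezing. ATMG00690 was at medians of 2.17, 1.47, 1.74, 1.90 and 1.19 CPM. In each of these 3 rows all 5 groups overlapped. ATMG00060, ATMG00670, ATMG00040, ATMG00070 and ATMG00516 averaged 1.17 to 1.79 CPM over all libraries, close to the floor, and had at least 1 library at 0.

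ATMG01170 was at medians of 4.49, 4.51, 5.50, 3.45 and 3.28 CPM in the same group order. Its lowest library was water replicate 8 at 1.78 CPM and its highest frozen water replicate 7 at 9.15 CPM. ATMG00080 had medians of 2.51, 2.39, 3.71, 2.84 and 5.44 CPM. ATMG00660 varied widely within groups: beside starting replicate 6, single libraries reached 20.8 CPM after ethanol, 20.7 after water with freezing and 28.9 after ethanol with freezing, while all 8 water libraries lay between 5.24 and 8.67 CPM. Its group medians were closer, at 9.79, 7.02, 8.85, 6.69 and 10.3 CPM.

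Shares of the mitochondrial counts were not tested and are given as a description. The 105 rows that could not be tested held 11.4 ± 2.86% of mitochondrial counts in starting plants, 12.2 ± 3.42% after water, 12.0 ± 1.75% after ethanol, and 11.4 ± 3.05% and 11.6 ± 1.95% in the same order after freezing. Among tested rows with no call, ATMG00160 held 5.27 ± 2.60% in water plants and 2.70 ± 0.99% after freezing, and ATMG00510 held 4.48 ± 1.84% and 1.70 ± 0.99%. ATMG00640 held 4.81 ± 2.10% in starting plants and 2.48 ± 1.25% in water plants. ATMG00660 held 18.9 ± 12.3% in starting plants and 12.9 ± 3.27% in water plants. After freezing, ATMG00090 held 15.6 ± 4.59% in water-pretreated and 21.6 ± 5.16% in ethanol-pretreated plants.

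**Figure D5:**
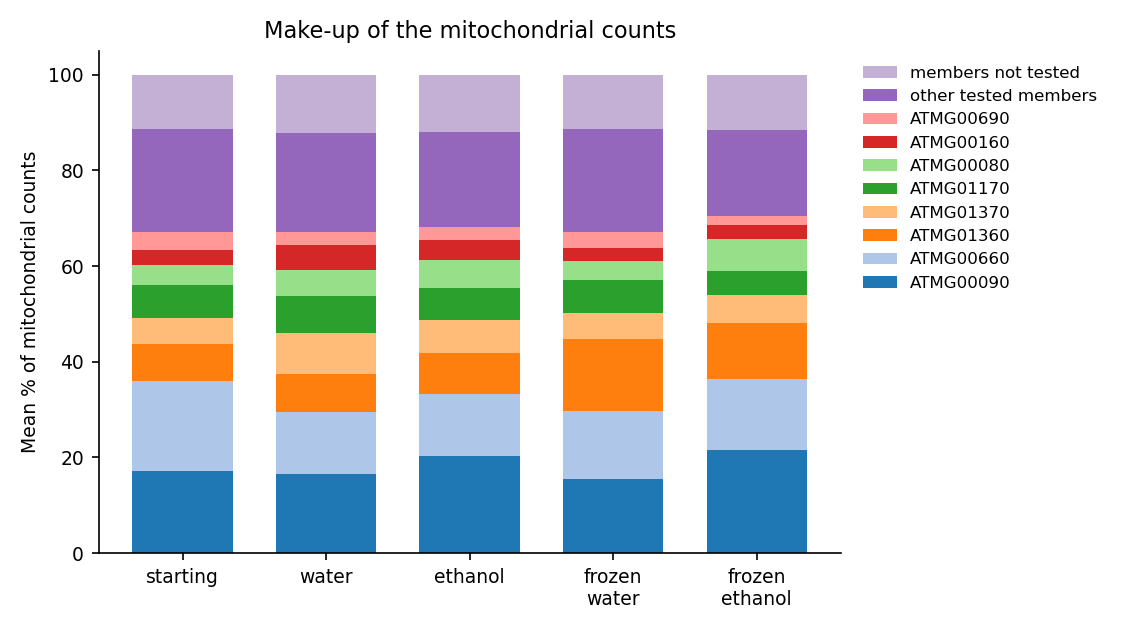
Mean percent of the mitochondrial counts of a library that each of the 8 most counted rows, the 9 other tested rows and the 105 rows not tested held in each group (n = 8). ATMG01360 widens from 8.05% in water to 15.0% in frozen water plants, and the rows not tested stay between 11.4% and 12.2%.

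Nuclear genes whose products work in mitochondria were set beside the mitochondrial rows. All 31 genes of a list of nuclear respiratory chain subunits were tested. Of these 0 rose and 5 fell from starting to water plants, and 0 rose and 15 fell from starting to ethanol plants, beside 24.5% and 32% of all tested genes called in either direction. The list medians were -0.11 and -0.13. CYTC-2 (AT4G10040), a cytochrome c gene, went from 71.3 ± 11.0 CPM in starting to 38.0 ± 5.06 CPM in water plants, a change of -0.91 ± 0.10 (adjusted p = 3.6e-10). With ethanol 0 rose and 3 fell before freezing, where ATMG00090 was higher, and 0 were called in either direction after it, beside 10% and 5.25% of all genes. With freezing 7 rose and 4 fell in water-pretreated plants and 6 rose and 1 fell in ethanol-pretreated plants, beside 14% and 9.78% of all genes, with medians of -0.06 and 0.01. EMB1467 (AT5G37510), a subunit of complex I, rose from 47.7 ± 9.31 to 66.8 ± 2.32 CPM (0.48 ± 0.09, adjusted p = 0.000152) in water-pretreated plants. It also rose in ethanol-pretreated plants, where ATMG01360 was not called, from 52.3 ± 5.71 to 68.1 ± 6.75 CPM (0.38 ± 0.09, adjusted p = 0.00276).

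Genes that maintain and express the mitochondrial genome were tested for 23 of 25 listed. Of these 0 were called from starting to water plants, where 24.5% of all genes were, and 0 rose and 5 fell from starting to ethanol plants, beside 32%. With ethanol 0 rose and 2 fell before freezing, beside 10%, and 0 were called after it, beside 5.25%. With freezing 3 rose and 1 fell in water-pretreated plants, beside 14%, and 2 rose and 0 fell in ethanol-pretreated plants, beside 9.78%. AT5G14580 encodes a polyribonucleotide nucleotidyltransferase, an exonuclease that degrades tailed RNA in plant mitochondria. It rose with freezing from 2.09 ± 0.60 to 4.27 ± 1.496 CPM after water (1.03 ± 0.29, edgeR adjusted p = 0.0121) and from 1.13 ± 0.29 to 2.54 ± 0.71 CPM after ethanol (1.16 ± 0.31, adjusted p = 0.0110). Its part in the mitochondrial levels was not tested. The DNA polymerase genes POLGAMMA1 (AT3G20540; 0.80 ± 0.24, adjusted p = 0.0153) and POLGAMMA2 (AT1G50840; 0.60 ± 0.16, adjusted p = 0.00798), which copy organelle DNA, rose with freezing in water-pretreated plants. In ethanol-pretreated plants they went from 4.93 to 7.29 CPM (0.55 ± 0.23, adjusted p = 0.134) and from 7.92 to 11.03 CPM (0.45 ± 0.16, adjusted p = 0.0615), and a difference between the pretreatments was not called for either.

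Of a list of 16 nuclear genes known to respond when mitochondria are disturbed 8 could be tested. From starting to water plants 3 rose and 2 fell, beside 24.5% of all genes called, and from starting to ethanol plants 2 rose and 0 fell, beside 32%. With ethanol 1 rose and 1 fell before freezing, beside 10%, and 0 rose and 1 fell after it, beside 5.25%. AOX1A (AT3G22370), the alternative oxidase that lets electrons bypass the cytochrome pathway, rose from 31.9 ± 2.99 CPM in water to 49.5 ± 7.75 CPM in ethanol plants (0.63 ± 0.12, adjusted p = 7.53e-05), and 8 of 8 ethanol libraries lay above every water library. BCS1 (AT3G50930), an outer membrane protein of mitochondria, fell with ethanol by 1.79 ± 0.53 (adjusted p = 0.0198), with a single water library at 24.8 CPM, and by 1.99 ± 0.51 after freezing (adjusted p = 0.0116). With freezing 1 rose and 1 fell in water-pretreated plants, beside 14%, and 0 were called in ethanol-pretreated plants, beside 9.78%. In the difference of freezing effects 0 genes of any of these 3 lists were called, beside 0.133% of all genes.

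Leaf mesophyll markers summed to 45080 to 76923 CPM over the 40 libraries, and every library of the other 4 groups lay below every starting library. In frozen water plants they came to 52162 ± 2974 CPM, against 61907 ± 2935 CPM in water plants. In that comparison 3 of 5 markers fell, beside 14% of all genes called in either direction. RBCS1A (AT1G67090), the largest part of the sum, went from a mean of 38198 to 29992 CPM. RCA (AT2G39730) and CAB2 (AT1G29920) did not fall, with means of 3330 and 10126 CPM before and 3543 and 10687 CPM after freezing. ATMG01360 rose between the same groups, and the part of these markers in that rise was not tested. Of 3 guard cell markers KAT1 (AT5G46240) rose in that comparison, from 5.84 ± 1.12 to 11.4 ± 4.26 CPM (0.96 ± 0.21, edgeR adjusted p = 0.000976). MYB60 (-0.20 ± 0.16, adjusted p = 0.470) and FMA (0.01 ± 0.16, adjusted p = 0.977) did not pass, and the sum of all 3 was 33.1 ± 4.03 CPM before and 37.0 ± 6.98 CPM after freezing.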

How the data were processed

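Messenger RNA of shoots was measured in 40 libraries, with groups taken from the sample titles. The authors deposited raw counts, whole reads per gene. The submitters' processing notes name TAIR10 as the build and, as tools, DESeq2, featureCounts, HISAT2, Trimmomatic and bcl2fastq. Versions, strand and the handling of reads that map to several places are not stated there, so rows with near-identical or overlapping genes are uncertain. The authors' normalized table was not used, and 0 other per-sample columns were left out.

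Counts of all 40 libraries were tested in 1 model with a mean per group in edgeR 4.0.16 (R 4.3.3): filterByExpr over the 5 groups (16579 genes), TMM scaling and edgeR's quasi-likelihood test. Calls needed a Benjamini-Hochberg adjusted p under 0.05 over all tested genes. The reference was RefSeq TAIR10.1. Nuclear copies were the genes that its notes tie to a mitochondrial identifier, with no filter on identity. They were then aligned to the mitochondrial genome with BLAST+ 2.17.0. The best alignment of each copy was kept, and the lowest identity was 99.0%. Every tested mitochondrial row could be named, with full values for the 8 with the highest mean CPM and the called ones, and of nuclear lists up to 4 genes with the smallest p. Members and lists were chosen with earlier results of these data known. Alternatives were RLE scaling, scaling on nuclear genes, DESeq2 1.42.0, no filter, a replicate block, a fit of only the groups compared, leaving out water replicate 6 with ethanol replicate 7, and leaving out each library.

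Each library counted as 1 sample. Libraries of a group differed beyond sampling noise (chi-square over degrees of freedom 3.48 to 21), which cannot tell separate plants from repeated libraries of the same material. Separate plants or pots are not stated for the libraries, so p-values measure only the spread between these libraries. Floors cover counting error only.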

Additional observations from a re-analysis of the deposited data

Results flagged for a closer look

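In 90 groups of 8 libraries examined, 12 single values stood far from the rest of their group. The rule flags about 1 in 20 groups of normally distributed values, and its rate for low counts such as these was not computed. ATMG00660 was at 48.0 CPM in starting replicate 6, against 5.72 to 15.9 CPM in the other 7, and at 28.9 CPM in frozen ethanol replicate 8, against 4.00 to 12.3. ATMG01360 was at 8.17 CPM in starting replicate 1, against 3.74 to 5.43. ATMG01170 was low in water replicate 8, at 1.78 CPM against 4.01 to 5.19, and high in frozen water replicate 7, at 9.15 CPM against 2.37 to 4.40. Starting replicate 4 was high in both ATMG00080, at 8.58 CPM against 0.93 to 4.33, and ATMG00690, at 5.30 CPM against 1.63 to 3.21. ATMG00060 was at 4.37 CPM in starting replicate 2, against 0.565 to 2.18. ATMG00510 was at 5.31 CPM in starting replicate 1, against 0.156 to 2.53. ATMG00640 was at 3.91 CPM in ethanol replicate 4, against 0.507 to 1.91. ATMG01120 was at 5.17 CPM in frozen water replicate 7, against 1.43 to 2.31. ATMG00670 was at 3.95 CPM in frozen ethanol replicate 5, against 0.285 to 1.87. These values rest on 6 to 255 counts each.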

How the results depend on the processing

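The rise of ATMG01360 with freezing in water-pretreated plants kept its direction and its call under all 7 alternatives (0.92 to 1.03) and without any 1 library. ATMG00090 was called in both ethanol comparisons under all 7 alternatives, at 0.71 to 0.75 before and 0.72 to 0.73 after freezing. No value changed direction with a call. Counts of called rows moved as follows, and the cause was not tested. From starting to water plants 2 rows were called (ATMG00640 and ATMG00660) with DESeq2, with only the groups compared, and without water replicate 6 and ethanol replicate 7. From starting to ethanol plants 2 were called with no filter (ATMG00050 and ATMG01030) and 1 with only the groups compared (ATMG00640). Between ethanol and water plants 2 were called with no filter (ATMG00090 and ATMG00180), where 77 rows were tested and their median fell from 0.45 to 0.11. The rows called only with no filter were sparse over the 40 libraries. ATMG00050 had 15 counts in 5 libraries, ATMG01030 had 23 in 8 and ATMG00180 had 30 in 12. Freezing in water-pretreated plants gave 1 call (ATMG01360) with no filter, with only the groups compared and with DESeq2, which left 11 rows without an adjusted p, ATMG01120 among them. With only the groups compared ATMG01120 was not tested. Between frozen groups 2 were called with only the groups compared (ATMG00080 and ATMG00090).

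With 1 library left out the number of calls was 1 to 2 from starting to water plants, 0 to 1 from starting to ethanol plants, 0 to 2 between ethanol and water plants, 1 to 2 for freezing after water, 0 to 0 for freezing after ethanol, 0 to 1 between the frozen groups and 0 to 0 for the difference of freezing effects. ATMG00640 was called from starting to water plants without starting replicate 6 or water replicate 1 or 6, and from starting to ethanol plants without ethanol replicate 4. ATMG01360 was called between ethanol and water plants without water replicate 2, and ATMG00510 for freezing after water without water replicate 3 or frozen water replicate 3 or 5. The median of the difference of freezing effects went from -0.31 to -0.01 without ethanol replicate 4.

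Replicate numbers showed little sign of pairing: between any 2 groups, deviations of same-numbered libraries correlated above 0.1 in at most 1 of 8 pairs. The highest correlation was 0.325, between a water and a frozen water library. Weak correlations cannot show that the samples were not paired. With the replicate number as a block, freezing after water gave 1 call, ATMG01360, and ATMG01120 had an adjusted p of 0.0574. No transcript length trend was fitted, since 0 of the 17 tested rows have a length in the reference. Depth limits all of this: 105 of 122 rows could not be tested, and the median SE of a tested row was 0.41 to 0.45 in comparisons of 2 groups, against 0.17 to 0.18 over all genes.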
